A study of Mus musculus with 95 samples.

Results

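Growth hormone and STAT5 dependent liver genes are described here through 6 genes, Hsd3b5, C6, Ugt2b38, Serpina4-ps1, Socs2 and Cyp17a1, out of 16464 genes measured by a probe set with a single gene symbol. Each gene was read by 1 probe set, so the 6 genes stand for 6 of 17306 probe sets. They were taken by name from a set described as losing the growth hormone pulse programme under valproic acid, and were thus chosen by measured values, their differences between livers of mice given valproic acid and livers of vehicle mice. Those differences are therefore given as a description, without a test. That description names no direction for single genes. Read as a lower level, it held for 4 of the 6 genes on day 11 of valproic acid at 500 mg/kg. Hsd3b5, C6, Ugt2b38 and Serpina4-ps1 were far lower there, with every treated array below every vehicle array. Socs2 and Cyp17a1 were not lower there. Socs2 was lower on day 1 and not lower on days 4 and 11 at that dose, and Cyp17a1 was higher on day 11.

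In male mice and rats, the pituitary releases growth hormone in separated pulses, while release in females is closer to continuous. In the liver the hormone binds the receptor Ghr, the kinase Jak2 is activated, and the transcription factor Stat5b is phosphorylated and enters the nucleus with each pulse. This pattern keeps male-biased liver genes high and female-biased genes low, with the repressors Bcl6 (higher in males) and Cux2 (higher in females) acting on STAT5 target genes. Socs2 and Cish are induced by STAT5 and feed back as inhibitors of the receptor, and Igf1 and Igfals carry the hormone's signal into the circulation.

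Promoter sequences from RefSeq (build GRCm38.p6) were at hand for 3 of the 6 genes and are shown because these 3 genes were low together in the same livers. Each runs 5′ to 3′ on the gene's own strand from 250 bases before to 50 bases after the annotated start. Hsd3b5 lies on chromosome 3 (chr3:98645485-98645784, minus strand), Ugt2b38 on chromosome 5 (chr5:87424154-87424453, minus strand) and C6 on chromosome 15 (chr15:4726960-4727259, plus strand). Capitals mark the only match to the motifs searched.
Hsd3b5: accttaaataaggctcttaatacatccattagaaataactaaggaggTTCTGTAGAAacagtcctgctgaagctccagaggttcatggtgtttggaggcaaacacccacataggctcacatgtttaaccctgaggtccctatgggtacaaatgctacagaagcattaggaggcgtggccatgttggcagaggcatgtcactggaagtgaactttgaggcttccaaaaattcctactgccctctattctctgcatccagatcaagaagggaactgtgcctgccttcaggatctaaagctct
Ugt2b38: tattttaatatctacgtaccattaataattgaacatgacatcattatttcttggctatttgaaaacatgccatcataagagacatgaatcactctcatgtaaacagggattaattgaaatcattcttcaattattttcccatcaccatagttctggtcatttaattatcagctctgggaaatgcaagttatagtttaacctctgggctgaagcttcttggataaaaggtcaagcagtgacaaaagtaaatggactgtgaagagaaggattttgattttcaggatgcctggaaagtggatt
C6: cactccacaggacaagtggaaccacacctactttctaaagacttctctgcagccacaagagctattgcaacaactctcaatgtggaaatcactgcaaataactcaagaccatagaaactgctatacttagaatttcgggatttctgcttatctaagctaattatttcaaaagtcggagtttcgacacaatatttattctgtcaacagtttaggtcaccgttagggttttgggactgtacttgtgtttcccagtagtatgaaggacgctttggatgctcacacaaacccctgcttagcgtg
The 4 motifs were searched on both strands. The STAT motif TTCNNNGAA had no match in the 3 windows and was present in 8.29% of all 32817 promoters of the same length. The related STAT6-type form, TTC and GAA with 4 bases between them, matched once, in Hsd3b5 as TTCTGTAGAA, and was present in 6.94% of all promoters. The one-cut motif ATCAAT was present in 7.54% of all promoters and the TATA motif TATAAA in 13.62%, with no match in the 3 windows. A match describes letters in this window only.

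The study gave male C57BL/6 mice of 10 weeks and 21 to 27 g 3 drugs that cause fatty liver, by oral gavage, and measured total RNA from the centre of the liver's left lateral lobe on 95 microarrays in 21 groups. Amiodarone (AMD, an antiarrhythmic) was given at 6.7, 20 or 60 mg/kg, valproic acid (VPA, an antiepileptic) at 125, 250 or 500 mg/kg and tetracycline (TET, an antibiotic) at 14.8, 44 or 133 mg/kg. The high doses were sampled on days 1, 4 and 11 and the lower doses on day 11, with 4 arrays per group on days 1 and 4 and 5 arrays per group on day 11. AMD and VPA shared 1 set of vehicle mice given PBS, and TET had its own vehicle of milli-Q water with ascorbic acid. The labels name no allele or transgene. Whether every array holds RNA of its own animal is not stated, so p-values measure the spread between these samples.

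Values are the deposited log2 levels, in which 1 unit is a doubling. Array medians lay between 3.08 and 3.15, so a gene near 3 is close to the background of the array and a fold change that ends there is a lower bound. Levels are compared between arrays for 1 gene at a time and never between genes. In these whole-liver samples, fewer cells of a type and less RNA per cell cannot be told apart. The mean of 9 hepatocyte markers stayed between 12.4 and 12.7 on every array of the PBS and VPA groups. Xist was at or below 2.69 and Eif2s3y at or above 6.04 on all 95 arrays, as in male tissue.

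The 6 genes differed in how steady they were without any drug. Over the 26 vehicle arrays Hsd3b5, a hydroxysteroid dehydrogenase of the adult male mouse liver, ranged only from 10.54 to 11.23. C6, a complement component of the membrane attack complex, ranged from 8.69 to 10.09. The others were among the most variable genes of the untreated liver. Ugt2b38, a UDP-glucuronosyltransferase, ranged from 6.87 to 9.84, and its within-group SD of 0.81 ranked 23 of 16464 genes. Serpina4-ps1, annotated as a transcribed pseudogene of the serpin A cluster, ranged from 6.22 to 9.83 with an SD of 0.88 and rank 17. Socs2, the feedback inhibitor of the growth hormone receptor, ranged from 5.12 to 7.85 with an SD of 0.71 and rank 36. Cyp17a1, a steroid hydroxylase of the androgen pathway, sat low, from 3.03 to 5.93, with an SD of 0.60 and rank 48. The median gene had a within-group SD of 0.144 in the same arrays, against 0.29 for C6 and 0.21 for Hsd3b5.

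**Figure D1:**
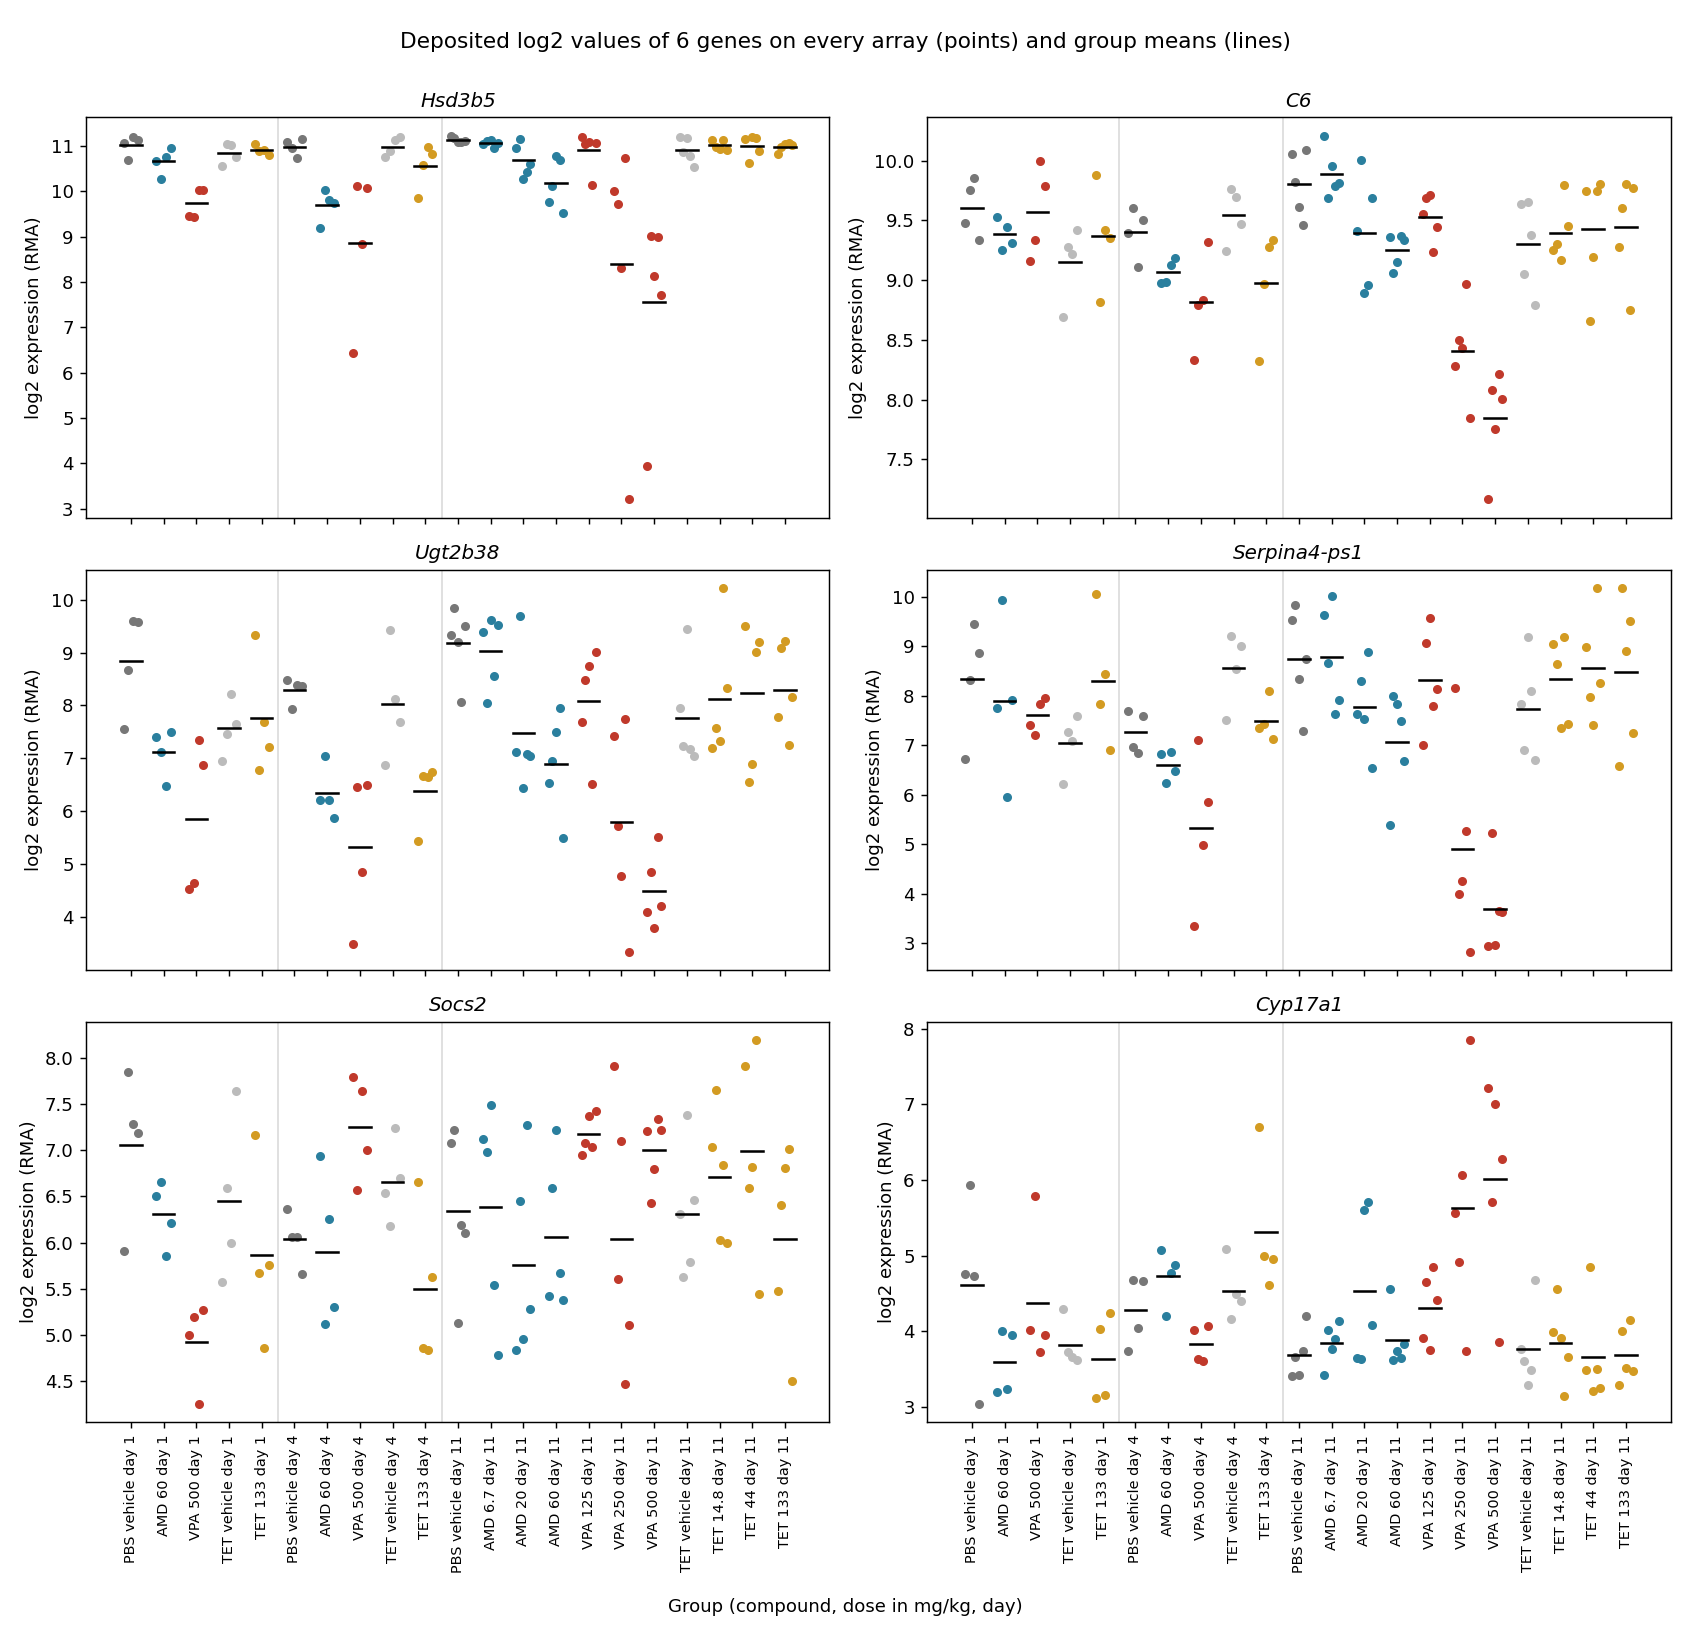
Deposited log2 level (vertical axis) of each of the 6 genes on every array (points) in all 21 groups (horizontal axis), with group means as lines; grey is vehicle, blue AMD, red VPA and gold TET. On day 11 all 5 arrays of VPA at 500 mg/kg lie below all 26 vehicle arrays for Hsd3b5, C6, Ugt2b38 and Serpina4-ps1.

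Hsd3b5 moved from the steadiest of the 6 genes to one of the most scattered under VPA. On day 1 the PBS vehicle arrays read 10.69, 11.06, 11.13 and 11.20 and the arrays of VPA at 500 mg/kg 9.44, 9.45, 10.02 and 10.03. On day 4 the VPA arrays read 6.43, 8.84, 10.07 and 10.12 against 10.72 to 11.14 in vehicle. The groups did not overlap on either day, and 1 array of day 4 (sample number 004) lay far below the other three. On day 11 the vehicle arrays read 11.08, 11.08, 11.12, 11.18 and 11.23. VPA at 125 mg/kg gave 10.14, 11.05, 11.07, 11.08 and 11.20, so that 1 array was low and 4 were at the vehicle level. VPA at 250 mg/kg gave 3.20, 8.31, 9.72, 10.00 and 10.72, and VPA at 500 mg/kg gave 3.95, 7.71, 8.12, 8.98 and 9.01. Both groups lay wholly below vehicle, and within each 1 array (067 at 250 mg/kg and 006 at 500 mg/kg) was near the array background. The mean differences were -1.29 ± 0.66 on day 1, -2.11 ± 0.66 on day 4, and -0.23, -2.75 and -3.58 ± 0.59 at the 3 doses of day 11 (log2 difference ± SE of the fit over all 21 groups), the last being a 12.0-fold lower level. Without array 067 the difference at 250 mg/kg was -1.45. Without array 006 that at 500 mg/kg was -2.68, and without array 004 that of day 4 was -1.30.

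C6 changed later and less. Its day 1 arrays read 9.16 to 9.99 under VPA and 9.34 to 9.85 in vehicle, with full overlap and a difference of -0.03 ± 0.23. On day 4 VPA gave 8.34, 8.79, 8.83 and 9.32 and vehicle 9.11, 9.39, 9.50 and 9.60, so that 1 VPA array reached into the vehicle range. On day 11 vehicle gave 9.46, 9.61, 9.82, 10.05 and 10.09. VPA at 250 mg/kg gave 7.85, 8.28, 8.43, 8.50 and 8.97 and VPA at 500 mg/kg 7.17, 7.76, 8.00, 8.08 and 8.21, both wholly below vehicle. The lowest array of each group was again 067 and 006. The differences were -0.58 ± 0.23 on day 4, -0.28 ± 0.21 at 125 mg/kg, -1.40 ± 0.21 at 250 mg/kg and -1.96 ± 0.21 at 500 mg/kg, or 3.89-fold lower.

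Ugt2b38 was low from the first day. Vehicle arrays of day 1 read 7.56, 8.67, 9.58 and 9.59, and VPA arrays 4.53, 4.65, 6.87 and 7.34. On day 4 vehicle gave 7.94, 8.37, 8.39 and 8.48 and VPA 3.50, 4.85, 6.46 and 6.49. The groups were separate on both days, and on each day 2 VPA arrays lay more than 1 unit below the other two. On day 11 vehicle gave 8.07, 9.20, 9.32, 9.50 and 9.84, VPA at 250 mg/kg 3.35, 4.78, 5.73, 7.42 and 7.75, and VPA at 500 mg/kg 3.80, 4.11, 4.21, 4.86 and 5.51. VPA at 125 mg/kg spread from 6.53 to 9.02 and overlapped with vehicle. The differences were -3.0 ± 0.71 on day 1, -2.97 ± 0.71 on day 4 and -1.09, -3.38 and -4.69 ± 0.64 at the 3 doses of day 11, the last 25.8-fold lower. The PBS arrays were themselves high for this gene: against the TET vehicle arrays of day 11 the differences at the 3 doses were 0.32, -1.97 and -3.27, so the direction at 125 mg/kg turned.

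Serpina4-ps1 had the largest difference of the 6 genes on day 11 and none clear of the spread on day 1. Day 1 vehicle arrays read 6.71, 8.32, 8.85 and 9.45, and VPA arrays 7.21, 7.41, 7.84 and 7.94, inside the vehicle range. On day 4 VPA gave 3.35, 4.98, 5.85 and 7.09 against 6.84, 6.96, 7.58 and 7.69, and the highest VPA array overlapped with vehicle. On day 11 vehicle gave 7.29, 8.35, 8.73, 9.53 and 9.83. VPA at 250 mg/kg gave 2.83, 3.99, 4.25, 5.27 and 8.16, 1 array (029) thus staying within the vehicle range while 4 were far below it. VPA at 500 mg/kg gave 2.94, 2.96, 3.64, 3.66 and 5.22, mostly at the array background. The differences were -0.73 ± 0.76 on day 1, -1.95 ± 0.76 on day 4, and -0.43, -3.84 and -5.06 ± 0.68 at the 3 doses of day 11. The last is 33.4-fold lower than PBS vehicle, a lower bound for that comparison because the treated arrays end near background. With the TET vehicle of day 11 in place of PBS, this difference was -4.06. Without array 004 the day 4 difference was -1.29.

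Socs2 went down and then up. On day 1 vehicle gave 5.91, 7.19, 7.28 and 7.85 and VPA 4.25, 4.99, 5.20 and 5.27, all below vehicle, for a difference of -2.13 ± 0.57 or 4.38-fold lower. On day 4 vehicle gave 5.66, 6.06, 6.06 and 6.36 and VPA 6.57, 7.00, 7.64 and 7.80, all above vehicle, for a difference of 1.22 ± 0.57 (2.32-fold higher). On day 11 vehicle spread over 5.12, 6.10, 6.20, 7.08 and 7.22, and the VPA groups overlapped with it. The arrays of VPA at 125 and 500 mg/kg were narrow, 6.95 to 7.43 and 6.43 to 7.34, while those of VPA at 250 mg/kg read 4.47, 5.10, 5.60, 7.10 and 7.92. The day 11 differences were 0.83, -0.31 and 0.66 ± 0.51, so that no dose order was seen. Against TET vehicle in place of PBS, the day 1 difference was -1.53 and the day 4 difference 0.59, and on day 4 the arrays then overlapped.

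Cyp17a1 had its 2 highest group means on day 11 of VPA, at 500 and 250 mg/kg. On day 1 VPA gave 3.73, 3.95, 4.02 and 5.79 and vehicle 3.03, 4.73, 4.75 and 5.93, with full overlap, and on day 4 the VPA arrays lay between 3.61 and 4.07 and vehicle between 3.74 and 4.67. On day 11 vehicle gave 3.41, 3.42, 3.65, 3.73 and 4.20. VPA at 250 mg/kg gave 3.73, 4.92, 5.57, 6.06 and 7.85 and VPA at 500 mg/kg 3.86, 5.71, 6.27, 7.00 and 7.22. In each of these groups 4 arrays were above vehicle and 1 was within it. The highest array of each was 067 and 006, the same arrays that were lowest in Hsd3b5 and C6. The differences were 0.63, 1.94 and 2.33 ± 0.46 at the 3 doses of day 11, the last 5.02-fold higher. Without array 067 the difference at 250 mg/kg was 1.39, and without array 006 that at 500 mg/kg was 2.03.

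**Figure D2:**
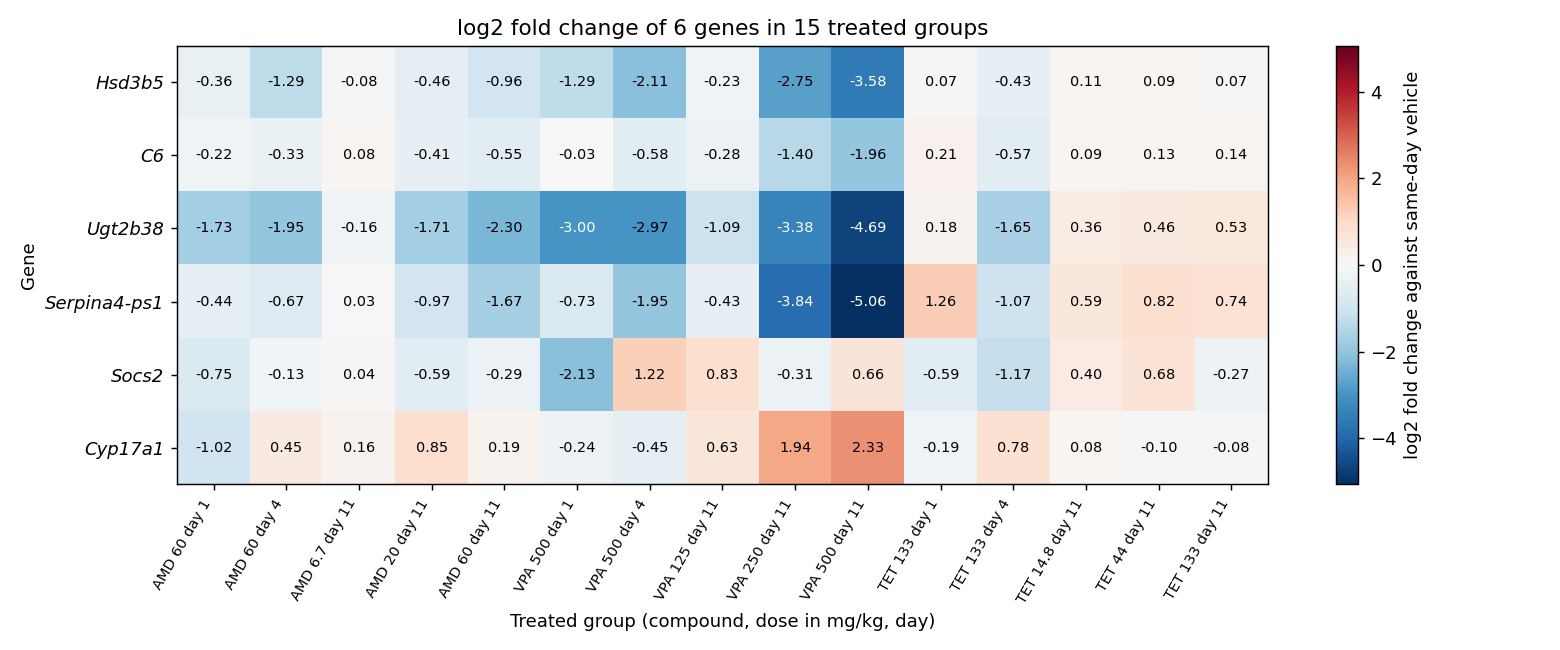
log2 difference of each of the 6 genes (rows) from the vehicle of the same day in the 15 treated groups (columns); blue is lower and red higher than vehicle. The deepest blue is Serpina4-ps1 at VPA 500 mg/kg on day 11 (-5.06), and the strongest red is Cyp17a1 in the same group (2.33).

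Counted over the 6 genes, every VPA array lay below every vehicle array for 3 genes on day 1 (Hsd3b5, Ugt2b38 and Socs2), where 6.93% of all genes did so. It held for 2 on day 4 (Hsd3b5 and Ugt2b38; 3.84% of all genes), for 3 at 250 mg/kg on day 11 (Hsd3b5, C6 and Ugt2b38; 1.42% of all genes) and for 4 at 500 mg/kg on day 11 (2.62% of all genes). None of the 6 lay wholly above vehicle in that last group, where 4.36% of all genes did. Against the TET vehicle of the same day in place of PBS, the counts were 2 on day 1, 4 on day 4, 0 at 250 mg/kg on day 11 and 4 at 500 mg/kg on day 11. The shares of all genes given here are those against PBS, and shares against the TET vehicle were not counted. The VPA contrasts chose the genes, so the counts are a description. Against all 26 vehicle arrays of both vehicles and all days, the 5 arrays of VPA at 500 mg/kg on day 11 were below every one for Hsd3b5, C6, Ugt2b38 and Serpina4-ps1, and 3 of the 5 were above every one for Cyp17a1. Per dose step on day 11 (vehicle, low, mid and high dose as equal steps) the fitted slopes were -1.33 for Hsd3b5, -0.70 for C6, -1.64 for Ugt2b38, -1.86 for Serpina4-ps1, 0.08 for Socs2 and 0.83 for Cyp17a1.

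The livers that lost most Hsd3b5 on day 11 also stood out in sex-biased genes outside the 6. The difference between VPA and vehicle in these genes shares its arrays with the contrast that chose the 6 genes. Cyp2b9, a female-biased cytochrome P450, read 3.02 to 3.23 in day 11 vehicle. It read 4.35, 6.05, 7.55, 8.25 and 10.44 in arrays 055, 029, 037, 051 and 067 of VPA at 250 mg/kg, and 5.65, 5.95, 8.02, 8.49 and 10.07 in arrays 028, 078, 049, 081 and 006 at 500 mg/kg. All 10 lay above every vehicle array, with the top array of each group again 067 and 006. Cyp2b9 rose by 4.17 ± 0.54 at 250 mg/kg (limma adjusted p = 1.4e-07) and by 4.48 ± 0.54 at 500 mg/kg (limma adjusted p = 3e-09), both lower bounds with the vehicle arrays at the array background.

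Male-biased genes moved the other way. Cyp7b1, an oxysterol hydroxylase, fell by 1.5 ± 0.34 at 250 mg/kg (limma adjusted p = 0.0031) and by 1.78 ± 0.34 at 500 mg/kg (limma adjusted p = 0.0001). Slco1a1, an organic anion carrier, fell by 1.71 ± 0.41 (limma adjusted p = 0.0046) and by 1.43 ± 0.41 (limma adjusted p = 0.013). In array 067 Slco1a1 read 3.90, against 9.12 to 9.94 in the other 4 arrays of its group and 9.96 to 10.22 in vehicle. Without array 067 the Slco1a1 difference at 250 mg/kg was -0.59 (limma adjusted p = 0.13). Without array 006 that at 500 mg/kg was -1.16 (limma adjusted p = 0.085). Both calls were thus lost without 1 array each, although the other 4 arrays at 250 mg/kg also read below every vehicle array. Cyp2d9 fell by 0.72 ± 0.13 (limma adjusted p = 0.00011) and by 0.60 ± 0.13 (limma adjusted p = 0.00057) at the same doses.

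**Figure D3:**
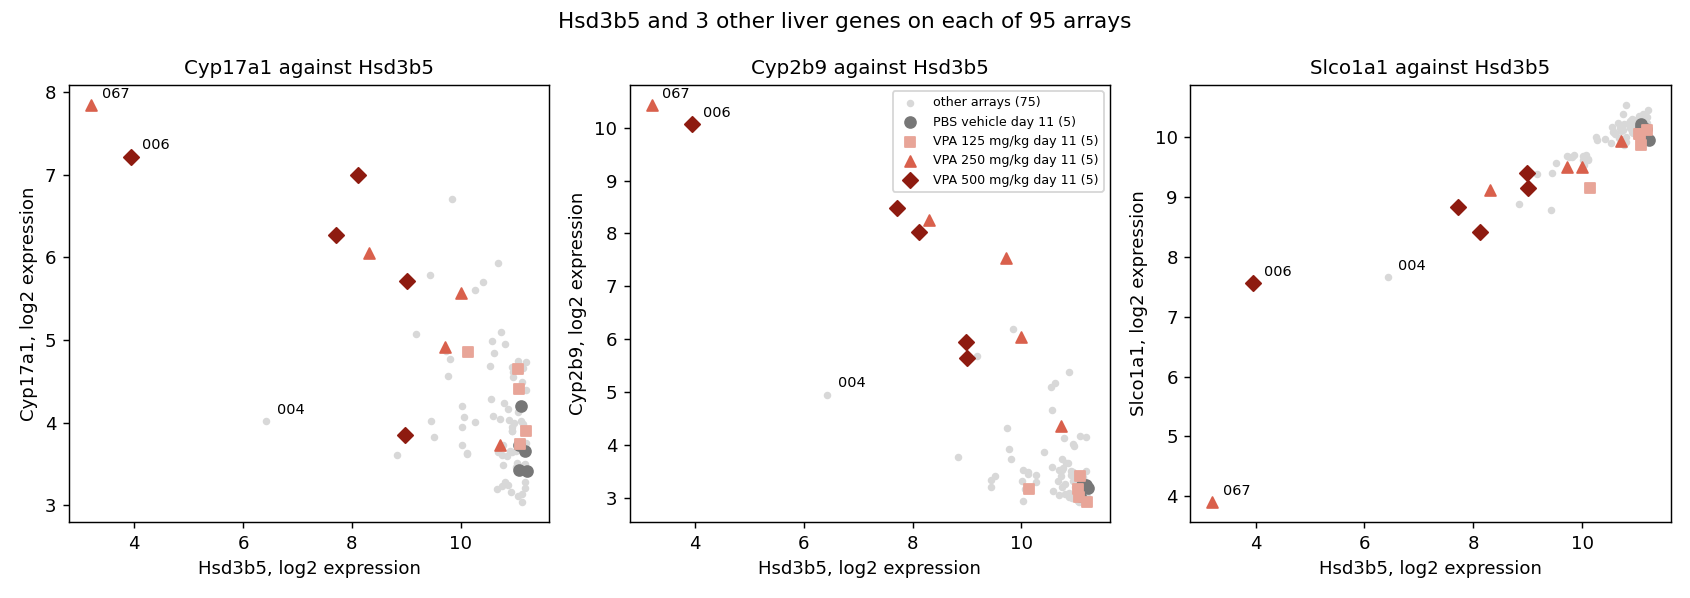
log2 levels of Cyp17a1, Cyp2b9 and Slco1a1 (vertical axes) against Hsd3b5 (horizontal axis), 1 point per array, with the day 11 PBS and VPA groups marked and the other 75 arrays in grey. Arrays 067 (Hsd3b5 3.20) and 006 (Hsd3b5 3.95) carry the highest Cyp17a1 and Cyp2b9 and low Slco1a1, and array 004 of day 4 (Hsd3b5 6.43) has low Slco1a1 without raised Cyp17a1.

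Of 18 measured male-biased liver genes, 13 fell and 0 rose at 250 mg/kg, with a list median of -0.80, where 1.49% of all genes fell and the median of all genes was -0.001. At 500 mg/kg 13 fell and 0 rose (median -0.65), where 3.14% of all genes fell. Of 18 female-biased genes, 7 rose and 1 fell at 250 mg/kg (median 0.32), where 2.76% of all genes rose, and 8 rose and 1 fell at 500 mg/kg (median 0.48), where 5.89% of all genes rose. Without array 067 the counts at 250 mg/kg were 7 male-biased genes lower and 6 female-biased genes higher. Without array 006 those at 500 mg/kg were 10 and 6. Against the TET vehicle in place of PBS, 9 male-biased genes were lower at each of the 2 doses, and 4 and 6 female-biased genes were higher. With only the 10 arrays of both groups in the fit, 4 male-biased genes were lower at 250 mg/kg. Among the male-biased genes at 500 mg/kg, the adipokine Serpina12 fell by 3.36 ± 0.39 (limma adjusted p = 8.7e-10). Among the female-biased genes, the proton pump subunit Atp6v0d2 rose by 1.78 ± 0.20 (limma adjusted p = 6.6e-10) and the leukaemia inhibitory factor receptor Lifr fell by 0.63 ± 0.17 (limma adjusted p = 0.007). At 125 mg/kg none of the 36 genes of the lists passed the test.

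The earlier days had less of this pattern. On day 1 of VPA at 500 mg/kg 5 male-biased genes fell and 0 rose (median -0.24), where 7.73% of all genes fell, and 4 female-biased genes fell and 0 rose (median -0.09), where 7.99% of all genes rose. The named ones were the male-biased Cib3 (-2.27 ± 0.39, limma adjusted p = 3.1e-06) and the fatty acid elongase Elovl3 (-1.57 ± 0.40, limma adjusted p = 0.0021), and the female-biased peroxisomal transporter Abcd2 (-1.55 ± 0.39, limma adjusted p = 0.0022; limma adjusted p = 0.089 without array 025). On day 4, 5 male-biased genes fell (median -0.42; 3 without array 004), where 1.04% of all genes fell, and 0 of 18 female-biased genes passed the test in either direction (median 0.22), where 1.32% of all genes rose. Whether the list counts differ between days was not tested.

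**Figure D4:**
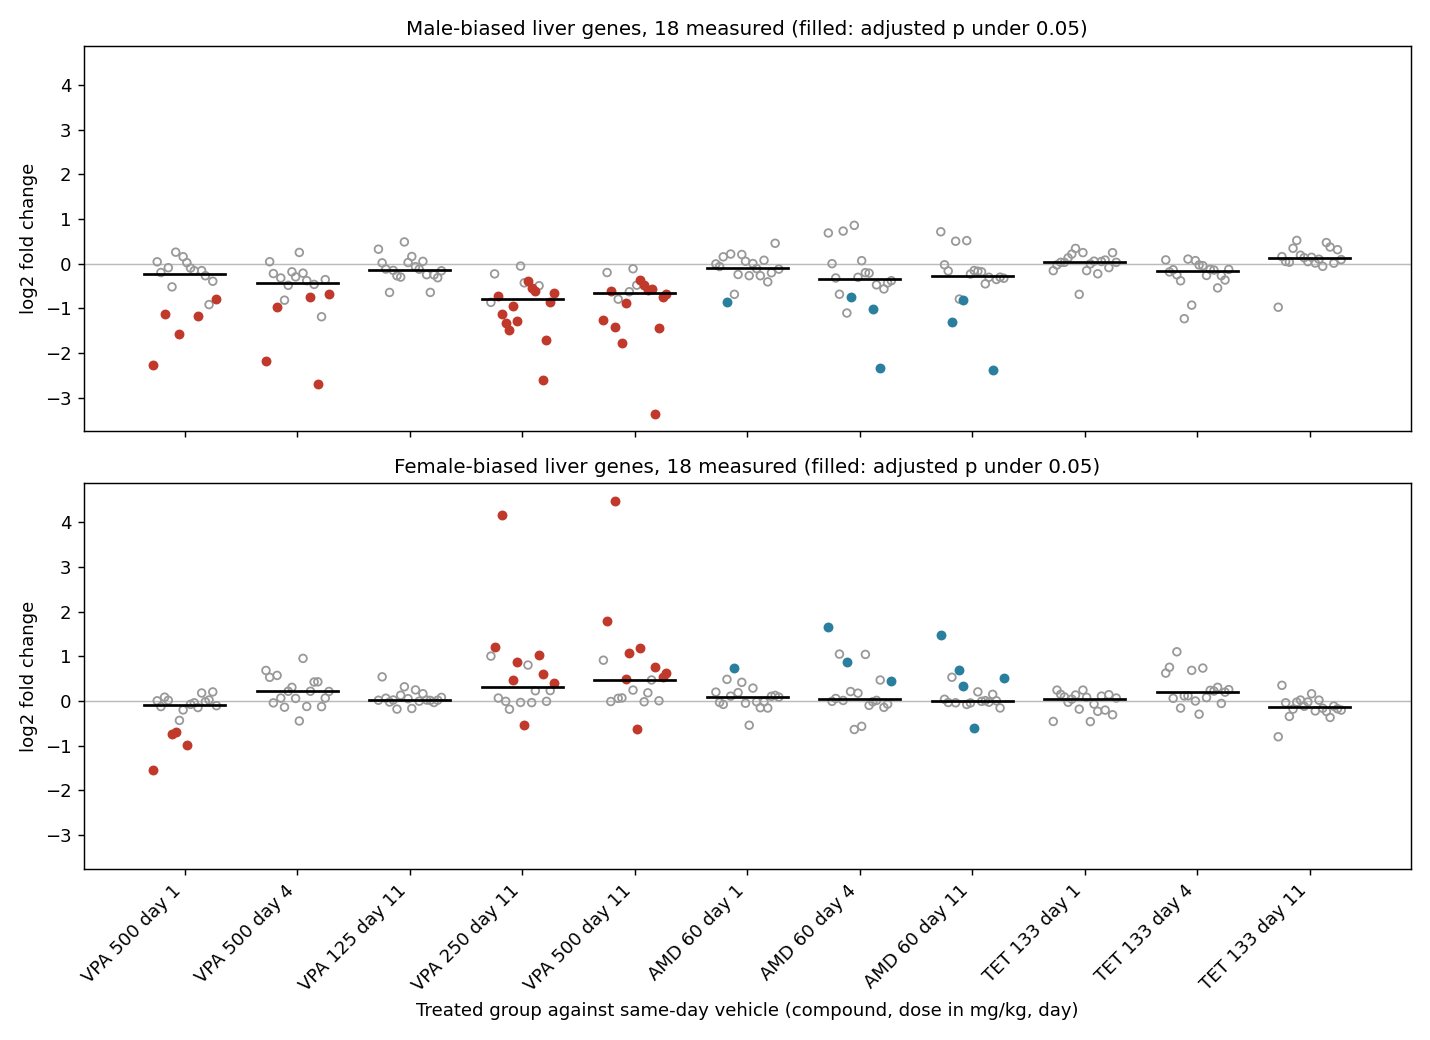
log2 difference from the same-day vehicle (vertical axis) of each of 18 male-biased (top) and 18 female-biased (bottom) liver genes in 11 comparisons (horizontal axis); filled points have a limma adjusted p under 0.05 and lines are list medians. The male-biased medians at VPA 250 and 500 mg/kg on day 11 are -0.80 and -0.65, and the female-biased medians 0.32 and 0.48.

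The receptor gene itself was slightly lower on all 3 days. Ghr fell by 0.53 ± 0.07 on day 1 (limma adjusted p = 2e-08), by 0.39 ± 0.07 on day 4 (limma adjusted p = 0.00031) and by 0.33 ± 0.07 on day 11 (limma adjusted p = 0.00021) of VPA at 500 mg/kg. On day 11 its vehicle arrays read 10.46 to 10.53 and the VPA arrays 10.06, 10.16, 10.18, 10.23 and 10.25, without overlap. At 250 mg/kg Ghr fell by 0.26 ± 0.07 (limma adjusted p = 0.0097). Array 067 was the lowest at 9.81, and without it the difference was -0.15 (limma adjusted p = 0.23). The kinase Jak2 had differences of 0.06 ± 0.10, 0.13 ± 0.10 and 0.00 ± 0.09 on the 3 days at 500 mg/kg, and Stat5b -0.05 ± 0.12, 0.28 ± 0.12 and 0.30 ± 0.11, none past the test (limma adjusted p = 0.072 or more). These are RNA levels and give nothing on the phosphorylation of either protein.

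Of 16 genes of growth hormone receptor signalling, 5 rose and 1 fell on day 1, 1 rose and 1 fell on day 4, and 1 rose and 3 fell on day 11 of VPA at 500 mg/kg (0 and 3 without array 006). The list medians were 0.03, 0.14 and 0.04. Of all genes, 7.99% rose and 7.73% fell on day 1, 1.32% and 1.04% on day 4, and 5.89% and 3.14% on day 11. The largest rise was that of Socs3, the cytokine-induced inhibitor related to Socs2. It read 6.95, 8.14, 8.34 and 8.45 on day 1 against 3.92 to 4.63 in vehicle, and rose by 3.62 ± 0.49 (limma adjusted p = 1.2e-08). On the same arrays Socs2 was below every vehicle array, so the 2 inhibitors moved in opposite directions. Stat3, the main transcription factor of interleukin 6 signalling, rose by 1.47 ± 0.18 (limma adjusted p = 5.1e-10) and the phosphatase Ptpn1 by 0.96 ± 0.11 (limma adjusted p = 2.2e-10). On day 4 Socs3 rose by 2.05 ± 0.49 (limma adjusted p = 0.007; limma adjusted p = 0.05 without array 008) while Socs2 was above every vehicle array. On day 11 Socs3 overlapped with vehicle (3.83 to 5.26 against 3.84 to 4.53).

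Acute phase genes were counted on the same arrays. All 20 of 20 measured rose on day 1 of VPA (median 1.7), where 7.99% of all genes rose. On day 4, 9 rose (median 0.60), where 1.32% of all genes rose. On day 11, 0 rose (median -0.01), where 5.89% of all genes rose, and 4 rose against the TET vehicle. Lcn2 rose by 7.19 ± 1.07 on day 1 (limma adjusted p = 1.4e-07). Of 11 Kupffer cell and macrophage markers, 0 passed on day 1 and 7 rose on day 4 (median 0.74; 3 without array 004), when their mean level spanned 6.35 to 7.10 on VPA arrays and 5.55 to 6.80 in vehicle. Of 6 neutrophil markers 2 rose on day 1. On day 11 at 500 mg/kg 0 genes of these 2 marker lists passed the test, while Hsd3b5, C6, Ugt2b38 and Serpina4-ps1 were at their lowest. Array 067 at 250 mg/kg carried Saa1 at 12.9 and Lcn2 at 12.3. Leaving it out moved the Lcn2 difference at 250 mg/kg from 2.17 to 0.78 and that of Saa2 from 0.37 to -1.03. Array 006 did not stand out in this way. Leaving it out moved the Lcn2 difference at 500 mg/kg from 1.98 to 1.75 and that of Saa2 from -0.52 to -0.24. The part of inflammation in the levels of the 6 genes was not tested.

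Among hormone outputs and regulators the changes differed in size. Igfbp2, an IGF-binding protein, fell by 1.56 ± 0.19 on day 1 (limma adjusted p = 7.9e-10). Igf1 fell by 0.29 ± 0.08 on day 4 (limma adjusted p = 0.019, lost without array 004, 008, 040 or 041, with limma adjusted p up to 0.12) and by 0.25 ± 0.07 on day 11 (limma adjusted p = 0.0087; limma adjusted p = 0.058 without array 020). Igfals, which carries IGF1 in blood, fell by 0.88 ± 0.18 on day 1 (limma adjusted p = 0.00016). Bcl6 fell by 2.45 ± 0.73 on day 4 (limma adjusted p = 0.049), from 6.54, 6.72, 6.77 and 7.27 in vehicle to 3.51, 3.70, 4.46 and 5.81, on the same arrays where Socs2 was high. That call was lost when any of the 8 arrays other than 008 was left out (limma adjusted p up to 0.19). The forkhead factor Foxa3 fell by 1.01 ± 0.15 on day 11 (limma adjusted p = 1.5e-06). Cux2, Onecut1 and Cish did not pass the test on any of the 3 days. Of 14 regulators, 1 rose and 3 fell on day 1. On day 4, 0 rose and 2 fell (0 and 0 without array 004). On day 11, 2 rose and 2 fell (1 and 1 without array 006). Of all genes, 7.99% rose and 7.73% fell on day 1, 1.32% and 1.04% on day 4, and 5.89% and 3.14% on day 11. The regulator counts are small and are given as a description.

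Gene relatives of the 6 genes did not all move with them. At VPA 500 mg/kg 7.99% of all genes rose and 7.73% fell on day 1. The shares were 1.32% and 1.04% on day 4, and 5.89% and 3.14% on day 11. Of 7 other Ugt2 genes all 7 fell on day 1 (median -0.62), and 2 fell on each of days 4 and 11 at 500 mg/kg (1 without array 004 and 1 without array 006). The largest that passed were Ugt2b37 on day 1 (-1.51 ± 0.44, limma adjusted p = 0.0099; limma adjusted p = 0.082 without array 050) and Ugt2b1 on day 11 (-0.67 ± 0.12, limma adjusted p = 4.8e-05). Probe sets of this family may share sequence, so its members may not be fully separable. Of 4 other hydroxysteroid dehydrogenases of the 3b family 1 rose and 2 fell on day 1 and 1 fell on day 11, when Hsd3b5 was lowest. That call was Hsd3b2, which kept it in 2 of 10 fits that each left out 1 array (limma adjusted p up to 0.33). Hsd3b2 had -1.29 ± 0.24 on day 1 (limma adjusted p = 1.8e-05) and Hsd3b3 -1.06 ± 0.15 (limma adjusted p = 6.7e-08). Of 15 complement genes other than C6, 8 fell and 0 rose on day 11 (median -0.17; 5 fell against the TET vehicle). C8b, which joins C6 in the membrane attack complex, fell by 1.14 ± 0.14 (limma adjusted p = 2e-09), C9 by 0.80 ± 0.09 (limma adjusted p = 1.1e-09) and C8a by 0.71 ± 0.10 (limma adjusted p = 7.5e-08). Of 10 genes of the serpin A cluster 1 rose and 4 fell on day 11. The corticosteroid-binding globulin Serpina6 rose by 0.81 ± 0.17 (limma adjusted p = 0.00052) and Serpina11 fell by 0.99 ± 0.14 (limma adjusted p = 2.1e-07). Of 16 genes of steroid handling 2 rose and 1 fell on day 11, with the bile acid and steroid reductase Akr1d1 up by 0.87 ± 0.15 (limma adjusted p = 1.1e-05).

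Genes of the circadian clock and of the glucocorticoid response were also counted. Against PBS, 7.99% of all genes rose and 7.73% fell on day 1 at VPA 500 mg/kg. The shares were 1.32% and 1.04% on day 4, and 5.89% and 3.14% on day 11. Of 18 clock genes 3 rose and 7 fell on day 1, 1 rose and 5 fell on day 4 (0 and 1 without array 004) and 0 passed on day 11 of VPA at 500 mg/kg against PBS, while 1 rose and 7 fell there against the TET vehicle. The output factor Dbp fell by 1.53 ± 0.16 on day 1 (limma adjusted p = 1.5e-12). Of 11 glucocorticoid response genes 2 rose and 1 fell on day 1, 2 rose on day 4 and 2 rose on day 11, the latter being Mt1 and Mt2. Mt2 rose by 2.93 ± 0.79 on day 11 (limma adjusted p = 0.0081; limma adjusted p = 0.058 without array 032). The hour of sampling is not in the labels used here.

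AMD gives a comparison on other treated livers, but against the same PBS arrays that served for VPA, so the values of both drugs are not independent. At 60 mg/kg Ugt2b38 passed the test on day 11: its arrays read 5.50, 6.54, 6.95, 7.50 and 7.95 against 8.07 to 9.84 in vehicle. All were below vehicle, and the level fell by 2.30 ± 0.64 on the log2 scale, or 4.92-fold (limma adjusted p = 0.012). It was 1 of 6 genes, where 2.81% of all genes fell. Leaving out array 062, the lowest, gave -1.95 (limma adjusted p = 0.069). Against the TET vehicle arrays of day 11 (7.04 to 9.44) the difference was -0.88 (limma adjusted p = 0.53), so the call depended on the PBS arrays. On day 1 Ugt2b38 read 6.48 to 7.50 and on day 4 5.88 to 7.05, all below the PBS arrays of those days, with differences of -1.73 ± 0.71 (limma adjusted p = 0.39) and -1.95 ± 0.71 (limma adjusted p = 0.094).

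Hsd3b5 under AMD at 60 mg/kg read 9.18, 9.73, 9.81 and 10.03 on day 4 against 10.72 to 11.14, and 9.52, 9.76, 10.11, 10.69 and 10.78 on day 11 against 11.08 to 11.23. The arrays did not overlap with vehicle on either day, yet the differences of -1.29 ± 0.66 (limma adjusted p = 0.32) and -0.96 ± 0.59 (limma adjusted p = 0.43) did not pass the test. The SE is estimated over all groups, the scattered VPA groups included. With only the 10 arrays of the 2 groups in the fit, 3 of the 6 genes passed on day 11. The share of all genes that passed in that fit is not given here, so this count is a description. The share of all genes without overlap was not counted for AMD. C6 read 9.06 to 9.37 on day 11, below the vehicle arrays, with -0.55 ± 0.21 (limma adjusted p = 0.1). Serpina4-ps1 read 5.38 to 8.00 and overlapped with vehicle (-1.67 ± 0.68, limma adjusted p = 0.14). Socs2 and Cyp17a1 overlapped with vehicle on all 3 days at 60 mg/kg. At this dose 0 of 6 genes passed on day 1, where 0.121% of all genes fell, and 0 on day 4, where 2.2% did. At 20 mg/kg 0 passed, where 0.0607% of all genes fell, and at 6.7 mg/kg 0 of 6 genes and 0 of 16464 genes passed, with 776 at an unadjusted p under 0.05.

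Across the doses of AMD on day 11 the slope per dose step was -0.84 ± 0.20 for Ugt2b38 (limma adjusted p = 0.0023) and -0.21 ± 0.07 for C6 (limma adjusted p = 0.029). Of all genes, 2.81% had a called downward slope. Both slopes start from the PBS arrays of day 11, which also served in the contrasts that chose the genes. Their means were 9.19 for Ugt2b38 and 9.81 for C6, against 7.77 and 9.30 in TET vehicle. Slopes from the TET vehicle were not computed. The slope of Serpina4-ps1 was -0.60 ± 0.21 (limma adjusted p = 0.074). The C6 slope lost its call when array 031, 033, 002 or 090 was left out (limma adjusted p = 0.06 to 0.084). Between AMD and VPA at the high dose on day 11, each against the same vehicle arrays, Hsd3b5 differed by -0.96 and -3.58, C6 by -0.55 and -1.96, Ugt2b38 by -2.30 and -4.69, Serpina4-ps1 by -1.67 and -5.06, Socs2 by -0.29 and 0.66 and Cyp17a1 by 0.19 and 2.33. The doses are not matched between drugs. Of the receptor pathway, Ghr fell by 0.38 ± 0.07 on day 11 of AMD (limma adjusted p = 1.3e-05). Of the male-biased genes 3 of 18 fell on day 11 of AMD (median -0.27), where 2.81% of all genes fell. Of the female-biased genes 4 rose and 1 fell, where 4.24% of all genes rose.

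No gene of the 6 passed the test under TET, and the arrays of every TET group overlapped with those of its vehicle, apart from Ugt2b38 on day 4. There the TET arrays at 133 mg/kg read 5.45, 6.65, 6.68 and 6.75, all below the vehicle arrays of 6.87, 7.69, 8.13 and 9.43, with a difference of -1.65 ± 0.71 (limma adjusted p = 0.52). Array 007 of that group was the lowest of its 4 arrays for Hsd3b5 (9.85), C6 (8.33) and Ugt2b38 (5.45) and the highest for Cyp17a1 (6.70). At 133 mg/kg 0 of 6 genes passed the test on day 1, where 0.65% of all genes passed, and 0 on days 4 and 11, where 0% of all genes passed (1386 and 888 genes at an unadjusted p under 0.05). None passed at 14.8 or 44 mg/kg, nor along the dose, nor in the comparison of the high-dose effect between days for TET or AMD. On day 11 the TET differences at 133 mg/kg were 0.07 ± 0.59 for Hsd3b5, 0.14 ± 0.21 for C6, 0.53 ± 0.64 for Ugt2b38, 0.74 ± 0.68 for Serpina4-ps1, -0.27 ± 0.51 for Socs2 and -0.08 ± 0.46 for Cyp17a1.

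The 2 vehicles were compared directly. TET vehicle minus PBS vehicle was -1.28 ± 0.71 for Ugt2b38 on day 1 (limma adjusted p = 0.58) and -1.41 ± 0.64 on day 11 (limma adjusted p = 0.49), and -0.50 ± 0.21 for C6 on day 11 (limma adjusted p = 0.45). No member passed on any day, where 0.0911%, 0.0121% and 0% of all genes passed on days 1, 4 and 11 (1407 genes at an unadjusted p under 0.05 on day 11). For Serpina4-ps1, TET vehicle minus PBS vehicle was -1.29 on day 1 and 1.29 on day 4. Its day 11 means were 7.74 in TET vehicle and 8.74 in PBS vehicle. These gaps enter the VPA and AMD values of Ugt2b38, C6 and Serpina4-ps1 against PBS given above.

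Ordered by group mean, Hsd3b5 ran from 11.14 in PBS vehicle of day 11 down to 7.55 in VPA at 500 mg/kg of day 11, with VPA at 250 mg/kg (8.39) and VPA at 500 mg/kg of day 4 (8.86) next above the last. Of the 20 gaps between neighbouring groups 1 exceeded the larger SD of the pair, that below PBS vehicle of day 11. For C6 2 gaps did so, those that set off VPA at 250 mg/kg (8.41) and then VPA at 500 mg/kg (7.84) on day 11 from the groups above. For Ugt2b38, Serpina4-ps1, Socs2 and Cyp17a1 0 of 20 gaps did. The same 2 day 11 groups were lowest for Serpina4-ps1 and highest for Cyp17a1, and the lowest Socs2 mean was that of VPA on day 1 (4.93).

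Across the 69 treated arrays, each as its difference from the mean of its same-day vehicle, the genes whose pattern was most like each member were listed by Pearson's r, given as a description. The arrays share groups and vehicles. Hsd3b5 was most like Mup3, a major urinary protein (r = 0.918), Slco1a1 (0.917) and Cyp2d9 (0.890), and most unlike Cyp2b9 (-0.834). C6 was most like Cyp7b1 (0.868), C8b (0.850) and Serpina12, and most unlike Cyp2c38 (-0.892). Ugt2b38 was most like Cyp7b1 (0.902), Cyp2u1 (0.876) and Nudt7 (0.872), and Serpina4-ps1 most like Serpina12 (0.801), Nudt7 (0.780) and Hopx (0.766). Both were most unlike Cd1d1 (-0.846 and -0.783), which encodes a lipid antigen presenting protein. Cyp17a1 was most like Cyp2b9 (0.787), Echdc3 (0.782) and Asrgl1 (0.761), and most unlike Cyp2d9 (-0.796). Socs2 stood apart from this set. It was most like Arhgap29 (0.765), Onecut1 (0.668) and Mapkapk3 (0.626), and most unlike Bcar3 (-0.572).

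The genes were chosen by differences between group means, and it was tested whether they vary together inside groups. The choice is not fully separate from this spread, because single arrays moved the VPA means. Without array 067 the Hsd3b5 difference at VPA 250 mg/kg on day 11 went from -2.75 to -1.45. For each array the deviation from its group mean was taken, and r was computed over 95 arrays with a permutation p from 100000 shuffles within groups, for which 1e-05 is the smallest p possible. Of 15 pairs among the 6 genes, 10 passed after adjustment over the 15, 7 with a positive and 3 with a negative r. How many pairs of other genes would pass the same test was not counted. C6 and Ugt2b38 varied together most (r = 0.712, rho = 0.694, permutation p = 1e-05 for both, adjusted p = 1.9e-05 and 2.1e-05). Without the 2 arrays farthest out, r was 0.696, and within the 4 blocks of consecutive sample numbers, of 23 or 24 arrays each, it was 0.667 to 0.779. Ugt2b38 and Serpina4-ps1 had r = 0.617 (rho = 0.641, permutation p = 1e-05, adjusted p = 1.9e-05; 0.60 without 2 arrays; 0.527 to 0.682 in blocks).

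Cyp17a1 ran against 3 of the other genes inside groups. It had r = -0.594 with Hsd3b5 (rho = -0.513), -0.567 with C6 (rho = -0.508) and -0.574 with Ugt2b38 (rho = -0.525), each with a permutation p = 1e-05 for r (adjusted p = 1.9e-05). Without the 2 arrays farthest out these were -0.492, -0.546 and -0.515, and in blocks they spanned -0.781 to -0.442, -0.756 to -0.427 and -0.692 to -0.357. In 13 of 21 groups the array highest in Cyp17a1 was the lowest in Hsd3b5. Over the 26 vehicle arrays alone 6 of 15 pairs passed by r, all positive and none with Cyp17a1. There C6 and Serpina4-ps1 had r = 0.696 (rho = 0.631, permutation p = 0.00055, adjusted p = 0.0041) and Ugt2b38 and Serpina4-ps1 r = 0.835 (rho = 0.770, permutation p = 1e-05, adjusted p = 0.00015). Without the 10 arrays of VPA at 250 and 500 mg/kg on day 11, 10 of 15 pairs passed.

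Socs2 was tied to 1 member only. Its r was 0.518 with Serpina4-ps1 (rho = 0.512, permutation p = 1e-05, adjusted p = 1.9e-05; 0.474 without 2 arrays; 0.380 to 0.679 in blocks). With Hsd3b5, C6, Ugt2b38 and Cyp17a1 it was 0.014, -0.003, 0.149 and 0.126, none past the test (permutation p = 0.96, 0.98, 0.26 and 0.36).

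**Figure D5:**
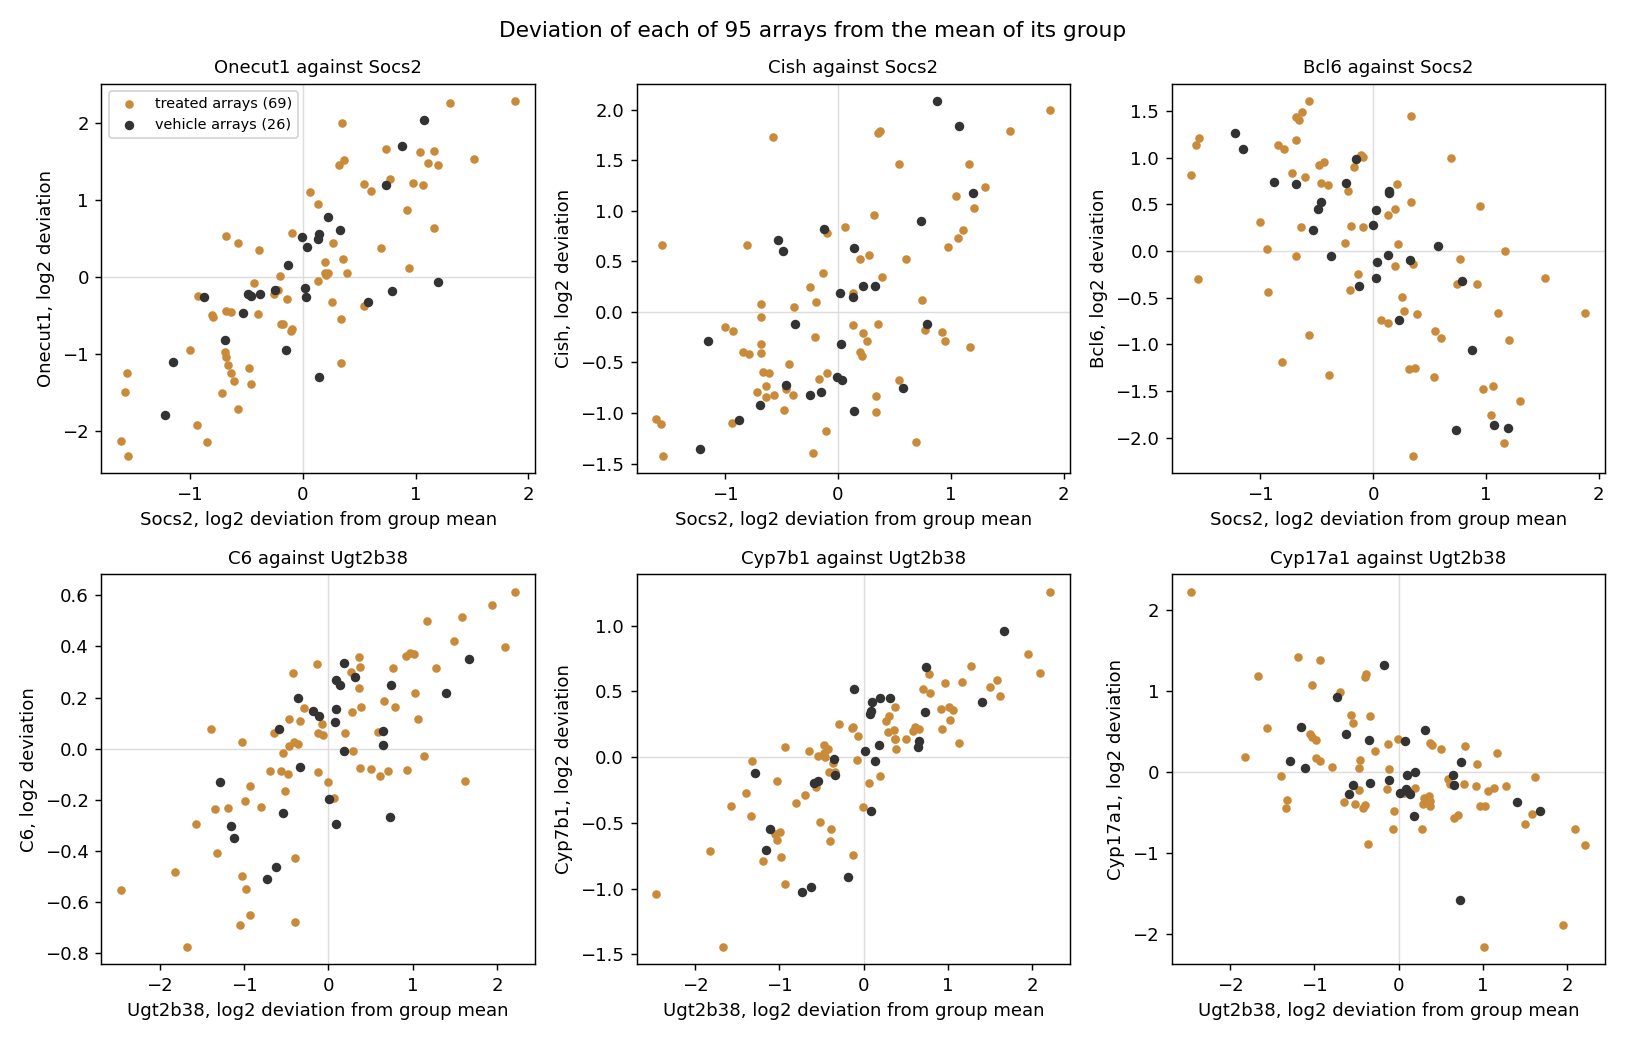
Deviation of each of 95 arrays from its group mean, in log2 units on both axes, for Socs2 with Onecut1, Cish and Bcl6 (top) and Ugt2b38 with C6, Cyp7b1 and Cyp17a1 (bottom); dark points are the 26 vehicle arrays and gold points the 69 treated arrays. Onecut1 rises with Socs2 (r = 0.797) and Bcl6 falls with it (r = -0.603), in vehicle arrays too.

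With 16 genes of the growth hormone pathway and its outputs, chosen after values of these arrays were seen, 45 of 96 pairs passed after adjustment over the 96. The share of passing pairs with other genes was not counted here either. Socs2 varied with some regulators of the pathway and not with others. It had r = 0.797 with Onecut1, a one-cut homeobox factor of hepatocytes (rho = 0.777, permutation p = 1e-05, adjusted p = 4.6e-05; 0.775 without 2 arrays; 0.750 to 0.876 in blocks). With the repressor Bcl6 it had r = -0.603 (rho = -0.620, permutation p = 1e-05, adjusted p = 4.6e-05; -0.605 without 2 arrays; -0.743 to -0.493 in blocks). With the sister inhibitor Cish it had r = 0.550 (rho = 0.516, permutation p = 2e-05, adjusted p = 7.7e-05; 0.509 without 2 arrays; 0.465 to 0.581 in blocks). In the 26 vehicle arrays alone these were 0.684 (rho = 0.664, permutation p = 0.0012, adjusted p = 0.011), -0.824 (rho = -0.771, permutation p = 0.00032, adjusted p = 0.0061) and 0.623 (rho = 0.558, permutation p = 0.0053, adjusted p = 0.031, and 0.077 for rho). With Hnf4a, Cux2, Stat5a and Jak2 the r of Socs2 was 0.094, 0.012, -0.078 and -0.189, none past the test (permutation p = 0.39, 0.92, 0.52 and 0.11). Serpina4-ps1 shared the tie to Onecut1 (r = 0.728, rho = 0.708, permutation p = 1e-05, adjusted p = 4.6e-05; 0.698 without 2 arrays).

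Hsd3b5, C6 and Ugt2b38 varied with male-biased genes. Hsd3b5 had r = 0.907 with Slco1a1 (rho = 0.652, permutation p = 1e-05, adjusted p = 4.6e-05), 0.866 without the 2 arrays farthest out and 0.849 without the 10 arrays of VPA at 250 and 500 mg/kg on day 11. In the 26 vehicle arrays alone this pair had r = 0.569 (rho = 0.437, permutation p = 0.014, adjusted p = 0.069) and did not pass. C6 had r = 0.822 with Cyp7b1 (rho = 0.787, permutation p = 1e-05, adjusted p = 4.6e-05; 0.806 without 2 arrays) and Ugt2b38 r = 0.807 (rho = 0.838, permutation p = 1e-05, adjusted p = 4.6e-05; 0.781 without 2 arrays). In vehicle arrays alone Cyp7b1 had r = 0.811 with Hsd3b5 (rho = 0.733, permutation p = 0.00012, adjusted p = 0.0058), 0.739 with C6 (rho = 0.759, permutation p = 0.0005, adjusted p = 0.008) and 0.717 with Ugt2b38 (rho = 0.770, permutation p = 0.00074, adjusted p = 0.0089). In these 26 livers without drug, the arrays low in 1 of these genes thus tended to be low in the others.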

How the data were processed

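Liver RNA was labelled with biotin by a 3' IVT kit and hybridised to Affymetrix arrays, per the labels' protocols. The deposited values are on a log2 scale and were made by the authors with RMA (background correction, quantile normalization and probe summary), per the submitters' processing notes; its version is not given in the sources used here. All 95 arrays (21 groups) were used as deposited. Of 17306 probe sets, 16464 had 1 gene symbol in the platform annotation and were tested, 842 had none and 0 several; each gene had 1 probe set, and all 16464 matched RefSeq by Entrez ID. Between arrays, correlations ran from 0.977 to 0.996. The number of arrays limits the precision.

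A linear model with 1 mean per group was fitted in limma 3.58.1 (R 4.3.3) on all arrays (74 residual degrees of freedom), with Benjamini-Hochberg adjustment over 16464 genes and a threshold of 0.05. Every ± is the SE of that fit and every limma adjusted p comes from it. Comparisons were each treated group with the vehicle of its day, dose steps on day 11, days within a dose, and the 2 vehicles. VPA comparisons of the 6 genes carry no test. Covariation used deviations from group means with permutations within groups (Python 3.11.15, numpy 2.4.6), and figures matplotlib 3.10.9. The fit was tested on simulated data. The members and the gene lists were chosen with earlier results of these data known. The genes named were the 6 members, up to 3 genes called in each direction per list under VPA at 500 mg/kg, up to 2 per list under AMD and TET, and a set of growth hormone genes that was always followed. Of these, some are given only as counts. Alternatives were the arrays compared alone, array weights, a filter on dim genes (8232 kept), quantile normalization again, median centring, blocks of 24 sample numbers, a variance trend with robust estimation, the other vehicle, and each array left out.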

Additional observations from a re-analysis of the deposited data

Results flagged for a closer look

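In 126 tests of 1 gene in 1 group, 8 had an array far from the others of its group by Dixon's ratio, where chance gives about 1 in 20. Under VPA, Hsd3b5 read 10.14 in array 056 of 125 mg/kg on day 11 (others 11.05 to 11.20) and 3.95 in array 006 of 500 mg/kg on day 11 (others 7.71 to 9.01), and Cyp17a1 read 5.79 in array 079 on day 1 (others 3.73 to 4.02). Under AMD on day 11, Ugt2b38 read 9.69 in array 065 of 20 mg/kg (others 6.45 to 7.12) and Cyp17a1 4.56 in array 012 of 60 mg/kg (others 3.62 to 3.83). Under TET, Ugt2b38 read 5.45 in array 007 of 133 mg/kg on day 4 (others 6.65 to 6.75) and Cyp17a1 4.85 in array 047 of 44 mg/kg on day 11 (others 3.21 to 3.50). In the TET vehicle of day 1, Cyp17a1 read 4.29 in array 027 (others 3.61 to 3.72).

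The difference of Socs2 from vehicle under VPA at 500 mg/kg changed direction between days. The day 4 difference exceeded that of day 1 by 3.35, and the day 11 difference exceeded it by 2.79. Every array of day 1 was below its vehicle mean and every array of days 4 and 11 above it. The change between days was not tested, because these arrays chose the gene.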

How the results depend on the processing

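With the TET vehicle in place of PBS, the VPA differences became 0.23, -0.90 and -1.46 for C6 at 125, 250 and 500 mg/kg on day 11 and 0.42 on day 1. For Ugt2b38 they became 0.32, -1.97 and -3.27 on day 11 and -1.72 on day 1, for Serpina4-ps1 0.56 on day 1 and -3.24 on day 4, and for Cyp17a1 0.55 on day 1. The AMD difference of Ugt2b38 at 60 mg/kg on day 11 became -0.88 (limma adjusted p = 0.53; a setting chosen after seeing the data). With blocks of sample numbers the C6 slope under AMD was -0.20 (limma adjusted p = 0.056). Female-biased genes called lower at VPA 250 mg/kg were 0 with blocks, with array weights and with only the arrays compared. Without dim genes, 4 and 5 female-biased genes rose at 250 and 500 mg/kg. With only the arrays compared, 214 genes were called at VPA 250 mg/kg (4 male-biased lower), against 701, 1448 against 2589 on day 1 and 251 against 389 on day 4. In the same setting 3 and 2 members were called under AMD at 60 mg/kg on days 11 and 4. The share of all genes called there is not given here. In vehicle arrays alone 6 member pairs passed.

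Leaving out 1 array at a time gave -3.33 to -1.45 for Hsd3b5 at VPA 250 mg/kg, -0.24 to -0.19 for the C6 slope under AMD, and -2.58 to -1.95 for Ugt2b38 at AMD 60 mg/kg on day 11, with 0 to 1 members called there. It gave 411 to 704 genes called at VPA 250 mg/kg (7 to 13 male-biased and 0 to 1 female-biased lower) and 219 to 382 on VPA day 4. No value of the 6 genes that passed the test changed sign under the alternatives run. Some that carry no test or did not pass it did, among them Socs2, VPA 250 mg/kg day 11 (0.09 without array 055) and C6, VPA 500 mg/kg day 1 (0.10 without array 023). The cause of these shifts was not tested. No paired analysis was possible because every array has a sample number of its own. Levels near 3 are at the array background, which limits how low a level can be measured.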
